A study of Homo sapiens with 6 samples.

Results

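The E2F transcription factors, the pocket proteins that bind them and MYBL2 were followed in the mesothelioma cell line NCI-H226, grown as monolayers or as matrix-free spheroids. The group was set by name as 10 genes: E2F1, E2F2, E2F3, E2F7, E2F8, RB1, RBL1, RBL2, TFDP1 and MYBL2. Every probe set annotated to them alone was taken, which gave 22 of the 54675 probe sets on a whole-genome Affymetrix array (HG-U133 Plus 2.0), 1 to 4 a gene. All cells were NCI-H226, an established human line that grows attached to plastic. The 3 monolayer samples were adherent cultures in serum-containing medium. Their time in culture and density at harvest for RNA are not given, so these cannot be told apart from the form of culture. The 3 spheroid samples were made from 10000 cells a well on a non-adhesive coating, spun together and incubated for 24 hours. Labels call the 3 of each kind biological replicates, and no sample had a drug or a gene change. RNA of each sample was hybridized to 1 array. Signals are linear MAS5 values as deposited, and tests used their log2 values centred on the median of each array.

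E2F factors bind DNA as pairs with a DP protein such as TFDP1 and turn on the genes of S phase. E2F1, E2F2 and E2F3 are known as activators. Pocket proteins (RB1, RBL1, also p107, and RBL2, also p130) bind E2Fs and keep those genes off until cyclin-dependent kinases phosphorylate them. E2F7 and E2F8 are atypical members that repress without a DP partner or a pocket protein. MYBL2, or B-MYB, joins the MuvB complex to switch on genes of G2 and mitosis. In resting cells the same complex pairs with RBL2 and E2F4 as DREAM, which keeps both gene classes off.

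Several members carry E2F-type sequence in their own promoters, and the stretches are shown because E2F genes are known to be regulated by E2F factors. The RefSeq promoter table (GRCh38.p14) held 11 entries for 9 of the 10 genes. The 250 bases before each start were searched on both strands for TTTNNCGC, an E2F-type motif, and for TTTGAA, the core of the cell cycle homology region (CHR) that MuvB binds. The E2F motif was found in 5 of the 11 entries, 1 each of E2F1, E2F2, E2F3, TFDP1 and RBL1, against 5.92% of all 35116 promoters. The CHR core was found in 1, that of E2F3, against 13.3% of all promoters. E2F1 held 4 E2F matches, at 122, 33, 20 and 14 bases before the start, of which the last 2 overlap on opposite strands. Matches in RBL1 lay at 26 and 16 bases, and those in E2F2 at 77, 42 and 38 bases, the last 2 overlapping. No match was found for E2F7, MYBL2, RBL2, RB1 or the other E2F3 start. The RB1 entry lies inside the gene, at an internal start.

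Below are the 130 bases before the annotated start of the gene for each promoter with a match, and of RBL2, the only member that rose. They lie at chr20:33686386-33686515 (minus strand, E2F1), chr1:23531234-23531363 (minus, E2F2), chr6:20401749-20401878 (plus, E2F3), chr13:113584558-113584687 (plus, TFDP1), chr20:37095998-37096127 (minus, RBL1) and chr16:53434341-53434470 (plus, RBL2). Each is written 5′ to 3′ on the strand of its gene, with motif matches in capitals.
E2F1: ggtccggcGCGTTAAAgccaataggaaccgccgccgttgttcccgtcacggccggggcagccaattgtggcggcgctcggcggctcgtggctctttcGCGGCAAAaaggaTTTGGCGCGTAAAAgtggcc
E2F2: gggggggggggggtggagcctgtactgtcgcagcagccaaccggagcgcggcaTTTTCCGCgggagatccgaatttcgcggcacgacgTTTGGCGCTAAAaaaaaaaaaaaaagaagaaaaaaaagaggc
E2F3: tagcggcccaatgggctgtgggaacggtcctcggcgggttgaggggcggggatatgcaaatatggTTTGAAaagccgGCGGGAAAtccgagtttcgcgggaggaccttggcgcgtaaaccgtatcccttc
TFDP1: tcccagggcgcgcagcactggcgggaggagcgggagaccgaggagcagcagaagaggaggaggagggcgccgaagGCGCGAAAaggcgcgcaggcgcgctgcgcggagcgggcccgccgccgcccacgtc
RBL1: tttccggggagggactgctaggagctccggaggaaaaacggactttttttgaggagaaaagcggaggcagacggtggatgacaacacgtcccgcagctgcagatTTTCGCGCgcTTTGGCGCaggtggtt
RBL2: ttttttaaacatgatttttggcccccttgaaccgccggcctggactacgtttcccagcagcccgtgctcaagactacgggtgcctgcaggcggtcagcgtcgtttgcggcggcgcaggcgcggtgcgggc

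The arrays were alike in depth of signal but not identical. Medians were 14.6 to 14.7 in monolayers and 15.2 to 18.0 in spheroids, while the mean without the top and bottom 2% was equal on all 6 arrays. The median difference over all probe sets was -0.08 on the log2 scale after centring and 0.07 on the values as deposited. For ACTB the 3′ signal over the 5′ signal, a sign of RNA integrity, ran from 1.09 to 1.11 in monolayers and from 1.11 to 1.23 in spheroids, and for GAPDH from 0.882 to 0.914 and from 0.890 to 0.914. The part of RNA integrity in the results was not tested. Of 8 mesothelial markers PDPN rose and 7 did not pass, and the brightest, KRT19, had mean signals of 4890 and 5500. THBD ran the other way, from 192 to 79.0, and did not pass (log2 fold change -1.24, adjusted p = 0.109 by limma). At an unadjusted p under 0.05 by limma 1 mesothelial marker was lower and 2 were higher. Of 6 leukocyte, 5 endothelial and 7 fibroblast markers 0 were called by limma or by the methods' t-test after adjustment. At an unadjusted p under 0.05 by limma 2, 1 and 0 of them passed, all higher. Shares of all genes by direction were not computed for the unadjusted marker counts, so these have no background beside them. Summed leukocyte signal was 64.3 to 76.5 in monolayers and 99.3 to 125 in spheroids. PTPRC, which defines leukocytes, had means of 3.92 and 13.1, both under the median signal of every array. The summed endothelial signal was 30.1 to 457 and 60.1 to 111, and the summed fibroblast signal 1823 to 2380 and 1935 to 2218.

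Monolayer 1 stood apart from the other monolayers in several markers. CALB2 (calretinin) had signals of 1582, 163 and 83.6 in monolayers 1 to 3 and of 1317 to 2238 in spheroids, and KRT5 had 1845, 130 and 79.3 in monolayers and 267 to 910.5 in spheroids. KDR and COL3A1 read 422 and 313 in monolayer 1 and at most 13.6 and 6.67 in the other monolayers. Spheroid 1 was the highest spheroid for the same 4 genes, at 2238 for CALB2, 910.5 for KRT5, 61.2 for KDR and 24.8 for COL3A1, against at most 1765, 290.4, 32.9 and 5.18 in the other spheroids. Values without monolayer 1 are given beside several members. Without it the genes called among the 10 were the same 6 lower and 1 higher. Without any other single array at least 1 of these calls ended. In bulk RNA, fewer cycling cells and less of an RNA in each cell cannot be told apart.

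Spheroids had less RNA of most of these regulators and more of RBL2. Among the 10 genes, each represented by its brightest probe set (highest mean log2 level), 6 were lower (E2F2, TFDP1, MYBL2, E2F7, E2F8 and RBL1), 1 was higher (RBL2) and 3 did not pass (E2F1, E2F3 and RB1). A gene was called at an adjusted p under 0.05 by limma over all probe sets, a test of the mean difference that borrows the spread of other probe sets. Over all 19775 genes read the same way, 9.22% were called lower and 3.88% higher. Counted by probe set, 9 of the 22 were lower, 1 was higher and 12 did not pass, against 6.65% and 2.78% of all 54613 probe sets tested. Their median log2 fold change was -0.90, and that of all probe sets -0.08. After centring the 3 spheroids lay below all 3 monolayers at 13 of the 22 and above them at 1, where 17.6% and 10.2% of all probe sets did so.

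**Figure D1:**
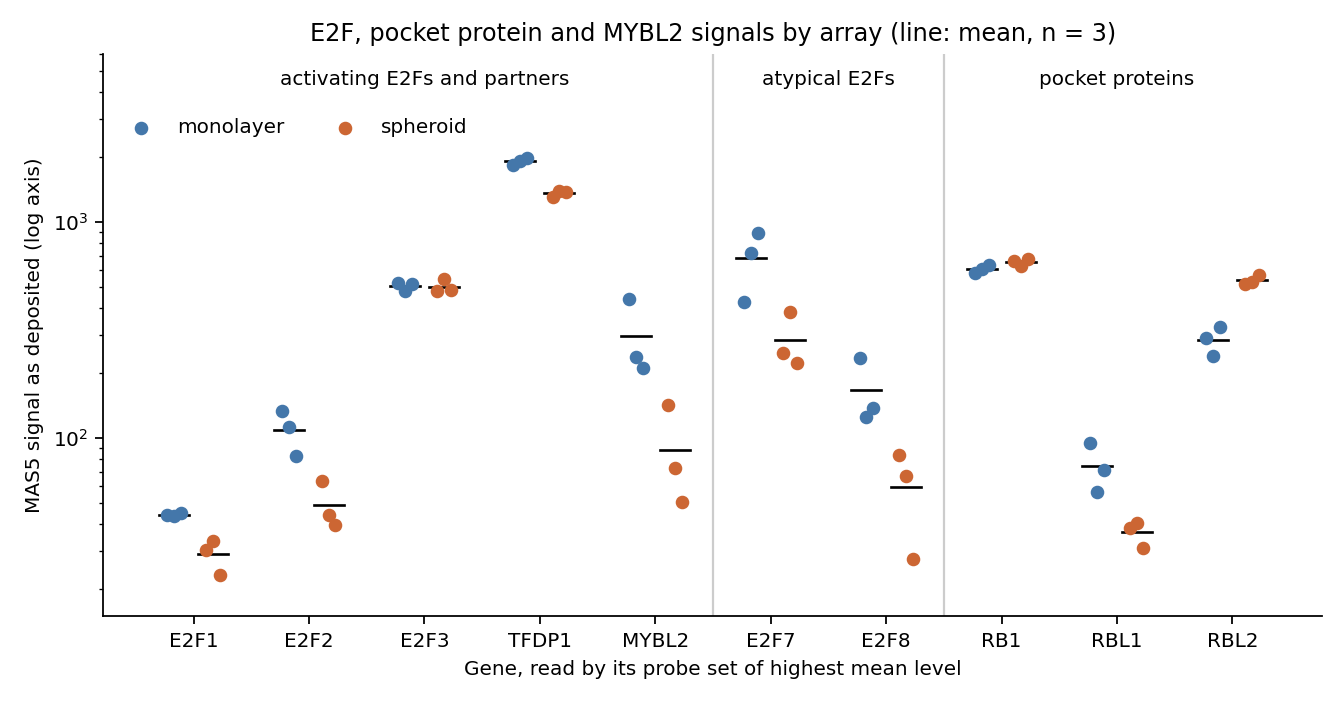
MAS5 signal as deposited (log axis) of the 10 genes in 3 monolayer and 3 spheroid arrays, each gene at its brightest probe set, with a black line at the mean of each group. Spheroid points lie below all monolayer points for E2F1, E2F2, TFDP1, MYBL2, E2F7, E2F8 and RBL1, above them for RBL2, and overlap them for E2F3 and RB1.

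The calls depended on how the spread was estimated. With limma without its mean-variance trend none of the 10 genes passed (7 lower and 1 higher at an unadjusted p under 0.05). The methods' t-test after the same adjustment called TFDP1 alone (8 lower and 1 higher without adjustment). Shares of all genes without adjustment were not computed by direction, so these unadjusted counts have no background beside them. Over the whole array the methods' test without adjustment called 10731 of 54613 probe sets, lower and higher together. Signs of the called genes did not turn under any alternative run, and losses of a call with single arrays are given gene by gene below. Without 1 array, 1 to 6 of the 10 genes were called lower and 0 to 1 higher: RBL1 and MYBL2 alone without monolayer 2, E2F7, TFDP1 and RBL2 without spheroid 2, and TFDP1 alone without spheroid 3. With values under the 20th percentile raised to it, the calls of E2F2, MYBL2, E2F7, E2F8 and RBL2 ended (adjusted p = 0.0681, 0.0989, 0.0781, 0.122 and 0.0542 by limma). Reading each gene by the mean of all its probe sets, E2F1 passed (log2 fold change -1.34, adjusted p = 0.0145 by limma) and E2F2, E2F7, RBL1 and RBL2 did not (adjusted p = 0.343, 0.0748, 0.509 and 0.0675).

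Among the activators, E2F2 was lower at its brightest probe set and E2F1 at the dimmer of its pair, while E2F3 did not pass. E2F1, which also drives apoptosis genes when unchecked, is read by both 2028_s_at and 204947_at. At 2028_s_at, the brighter of them, its signal was 44.0, 43.6 and 45.3 in monolayers and 30.3, 33.5 and 23.3 in spheroids. The groups did not overlap, yet the log2 fold change of -0.77 (standard error, SE, 0.23) missed the threshold by limma, at an adjusted p = 0.0697. It passed with values under the 20th percentile raised to it (adjusted p = 0.0429 by limma) and when dim probe sets were left out before adjustment (adjusted p = 0.0278 by limma).

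At 204947_at E2F1 fell further. Signals were 43.8, 29.9 and 38.1 in monolayers and 15.9, 8.24 and 9.74 in spheroids. This was a log2 fold change of -1.91 (SE 0.38, adjusted p = 0.0147 by limma). The call ended without monolayer 3 (adjusted p = 0.0621 by limma) and without spheroid 3 (adjusted p = 0.0537), and with the floor at the 20th percentile (adjusted p = 0.0531).

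E2F2 fell at its brightest probe set, 228361_at. Its signal was 133.6, 112 and 82.6 in monolayers and 63.7, 44.4 and 39.6 in spheroids, so the dimmest monolayer lay above the brightest spheroid. The log2 fold change was -1.30 (SE 0.26, adjusted p = 0.0160 by limma). It did not pass without monolayer 2, spheroid 2 or spheroid 3 (adjusted p = 0.0681, 0.0729 and 0.0695 by limma), and it was -1.15 without monolayer 1. The mean of its 3 probe sets gave -0.70, which did not pass. The other E2F2 probe sets were dim, with group means of 7.26 to 13.3, and did not pass. One of them, 207042_at, ran the other way (log2 fold change 0.23, 95% interval from -1.19 to 1.66), with signals of 13.6, 9.85 and 2.98 in monolayers and 12.2, 10.5 and 6.82 in spheroids.

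E2F3 did not pass at either probe set. At 203693_s_at its signal was 523, 482 and 519.5 in monolayers and 481, 544 and 485 in spheroids. The log2 fold change was -0.16, with a 95% interval from -0.43 to 0.10 (adjusted p = 0.486 by limma). Signals as deposited overlapped and centred values did not, and the sign of the change turned after quantile normalization (0.02). The other, 203692_s_at, gave -0.30, with an interval from -0.78 to 0.18. It moved to -0.14 without monolayer 1 and to -0.12 without spheroid 2.

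TFDP1, the DNA-binding partner of these E2Fs, was lower at all 3 of its probe sets. At 212330_at the signal was 1849, 1930 and 1983 in monolayers and 1303, 1399 and 1376 in spheroids, a tight drop of 0.64 on the log2 scale (SE 0.12, adjusted p = 0.0120 by limma). At 204147_s_at it was 264, 275.5 and 298 in monolayers and 134, 149.5 and 106 in spheroids. There the log2 fold change was -1.26 (SE 0.15, adjusted p = 0.00140 by limma), and the call held without any single array. At 242939_at the signal was 85.4, 180.3 and 158 in monolayers and 49.2, 58.0 and 57.5 in spheroids, with monolayer 1 nearest to the spheroids. The log2 fold change there was -1.44 (SE 0.27, adjusted p = 0.0124 by limma). Probe sets thus differed in size of change from 1.56-fold to 2.72-fold. Without monolayer 2 or 3, 212330_at did not pass (adjusted p = 0.0712 and 0.0693 by limma), nor did 242939_at (0.0557 and 0.0552), which also lost its call without spheroid 2 (0.0615) and with the floor at the 20th percentile (0.0669). Without monolayer 1 it was -1.77.

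MYBL2 had the largest fall among the 10 genes at their brightest probe sets. Its signal was 439, 238 and 211 in monolayers and 142, 73.1 and 50.5 in spheroids, a log2 fold change of -1.94 (SE 0.39, adjusted p = 0.0160 by limma) or 3.84-fold. Monolayer 1 stood well above the other monolayers and spheroid 1 above the other spheroids, while the groups did not overlap. Without spheroid 2 or spheroid 3 it did not pass (adjusted p = 0.0835 and 0.0689 by limma, log2 fold changes -1.79 and -1.65). Without monolayer 1 it passed, at -1.62, and E2F7 then had the larger fall (-1.69).

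Both atypical repressors were lower in spheroids. E2F7 at 228033_at had signals of 429, 724 and 892 in monolayers and 247, 385 and 222 in spheroids (log2 fold change -1.38, SE 0.26, adjusted p = 0.0120 by limma). The groups came close, with monolayer 1 at 429 and spheroid 2 at 385. Without monolayer 2 or spheroid 3 the call ended (adjusted p = 0.0559 and 0.0603 by limma), while without monolayer 1 the log2 fold change was -1.69. A dim E2F7 probe set, 241725_at, had signals of 20.5, 28.0 and 36.3 in monolayers and 2.08, 26.7 and 14.8 in spheroids, and did not pass. Its log2 fold change of -1.70 moved to -0.64 without spheroid 1.

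E2F8, read by 1 probe set, had signals of 236, 126 and 138 in monolayers and 83.6, 67.0 and 27.6 in spheroids. This was a log2 fold change of -1.72 (SE 0.39, adjusted p = 0.0254 by limma). Monolayer 1 was highest and spheroid 3 lowest, and the groups did not overlap. Its call ended without more single arrays than that of any other of the 7 called genes, namely monolayer 2, monolayer 3, spheroid 2 or spheroid 3 (adjusted p = 0.0540, 0.0595, 0.0854 and 0.0619 by limma). Without spheroid 3 the log2 fold change was -1.29, and without monolayer 1 it passed at -1.44. Monolayer 1 thus had the highest E2F8 and the lowest E2F7 of the monolayers.

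Of the 3 pocket proteins RBL1 was lower, RBL2 was higher and RB1 did not pass. RB1, the retinoblastoma protein, was bright at 203132_at, with signals of 584, 608 and 636 in monolayers and 663, 630 and 675 in spheroids. Relative to the array median its log2 fold change was -0.04, with a 95% interval from -0.34 to 0.26 (adjusted p = 0.909 by limma). The sign turned on the values as deposited (0.11) and after quantile normalization (0.14), and neither passed. The dim 211540_s_at gave 13.7, 10.96 and 22.1 in monolayers and 23.1, 16.9 and 31.0 in spheroids, with overlap (log2 fold change 0.47, 95% interval from -0.46 to 1.41).

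RBL1, a pocket protein that rises when cells cycle, fell. Its brightest probe set, 205296_at, gave 94.7, 56.6 and 71.4 in monolayers and 38.3, 40.5 and 31.2 in spheroids, without overlap (log2 fold change -1.14, SE 0.24, adjusted p = 0.0186 by limma). It did not pass without monolayer 3, spheroid 2 or spheroid 3 (adjusted p = 0.0660, 0.0671 and 0.0718 by limma), and it was -0.95 without monolayer 1. The mean of its 4 probe sets gave -0.50, which did not pass. At 1555004_a_at the log2 fold change was -1.30 (adjusted p = 0.0563 by limma), also without overlap. The remaining pair of probe sets had group means of 0.847 to 11.4, and their log2 fold changes of -0.36 and 0.79 did not pass. The dimmer, 1555003_at, gave 1.42, 0.701 and 0.419 in monolayers and 1.196, 6.85 and 0.357 in spheroids, so that spheroid 2 alone was high.

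RBL2, the pocket protein that dominates in resting cells, was higher in spheroids. Signals at 212331_at were 291, 239.5 and 328 in monolayers and 518, 527 and 570 in spheroids. The spheroids were close together and all above the monolayers (log2 fold change 0.78, SE 0.16, adjusted p = 0.0174 by limma), a rise of 1.71-fold. Without monolayer 2, spheroid 1 or spheroid 3 it did not pass (adjusted p = 0.0806, 0.0534 and 0.0742 by limma). At the dimmer 212332_at the log2 fold change was 0.53, with a 95% interval from -0.15 to 1.22, and it did not pass.

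**Figure D2:**
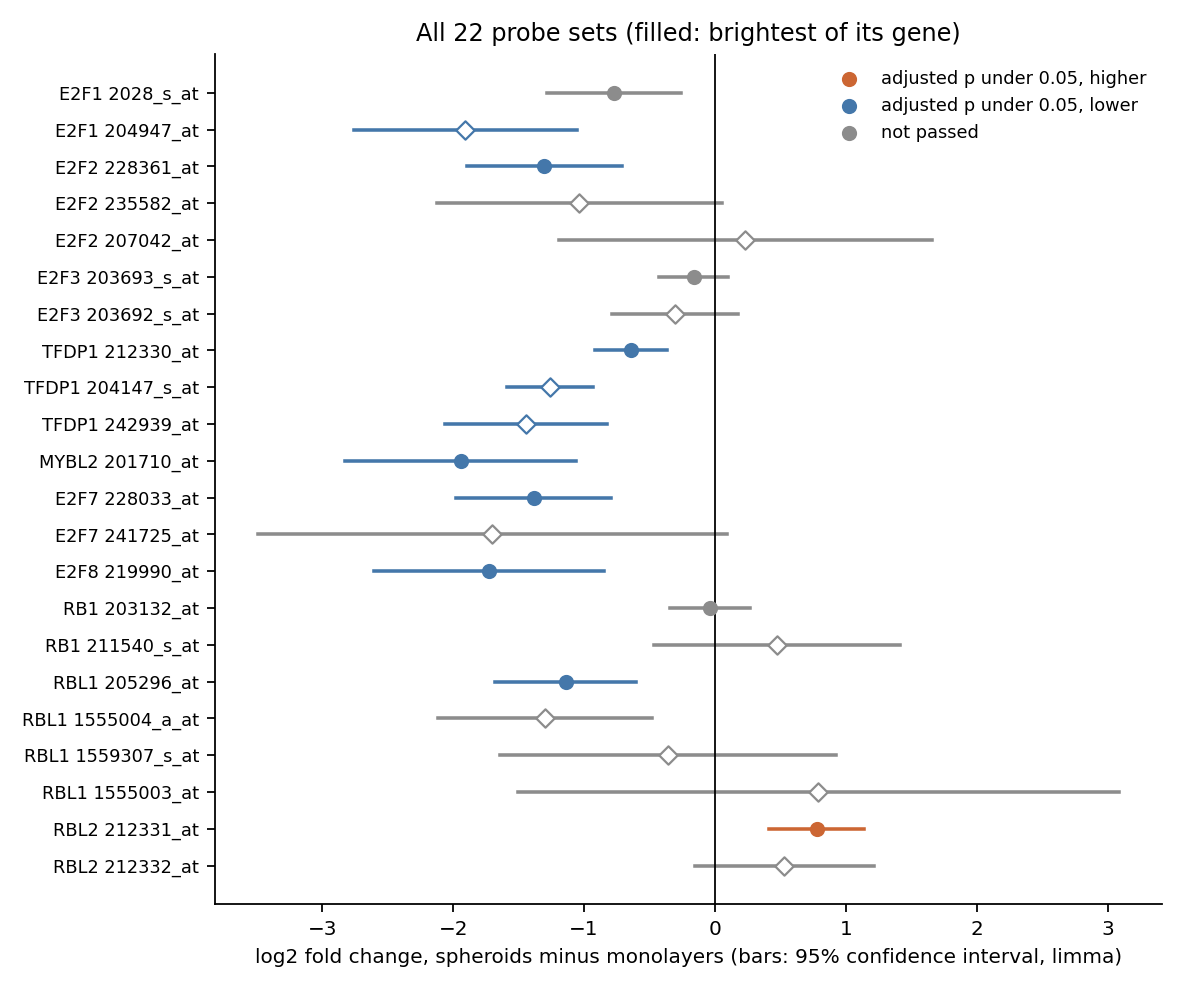
Log2 fold change, spheroids minus monolayers, of all 22 probe sets with its 95% confidence interval from limma, with filled circles for the brightest probe set of a gene and open diamonds for the others. Colour marks the 9 probe sets that passed lower (blue), the 1 that passed higher (orange) and the 12 that did not pass (grey).

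Changes of pairs of members were set against each other within each array, for 6 pairs chosen after the values were seen. Spheroids minus monolayers, RBL2 relative to RBL1 differed by 1.92 on the log2 scale, with 1.79, 1.73 and 2.23 in the spheroids against -0.35, 0.11 and 0.23 in the monolayers, with the monolayer mean set to 0. The difference was 0.82 for RBL2 relative to RB1, -1.10 for RBL1 relative to RB1, -0.61 for E2F1 relative to E2F3 and -1.14 for E2F2 relative to E2F3. In these 5 pairs the groups did not overlap, and how many other gene pairs also separate was not computed. For E2F8 relative to E2F7 the difference was -0.34, with overlapping groups. An exact permutation test gave p = 0.1 for each of the 5 pairs without overlap and p = 0.7 for E2F8 relative to E2F7. With 3 arrays against 3 an exact permutation test cannot give a p under 0.1, so it cannot decide. The differences are descriptions, since the pairs were chosen with their values in view.

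Set against each other as classes, activators and repressors both had negative mean changes in spheroids. Over the 5 activators and partners, with TFDP1 and MYBL2 among them, the mean change was -0.96 on the log2 scale, and over the 5 repressors -0.70. MYBL2, which is not an E2F, had the largest change of the former (-1.94). The others had -0.77 (E2F1), -1.30 (E2F2), -0.16 (E2F3) and -0.64 (TFDP1). The difference of the classes without MYBL2 was not computed. Among the repressors it was -1.55 for E2F7 and E2F8 and -0.13 for the 3 pocket proteins. The balance of activators over repressors was 0.26, 0.24 and -0.10 in monolayers and 0.00, -0.28 and -0.12 in spheroids, relative to the mean of all arrays. These groups overlapped, and the difference of means was -0.26 (SD 0.20 in monolayers and 0.14 in spheroids, n = 3). Taking the mean of all probe sets of a gene moved it to -0.49. No test was made of these means.

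**Figure D3:**
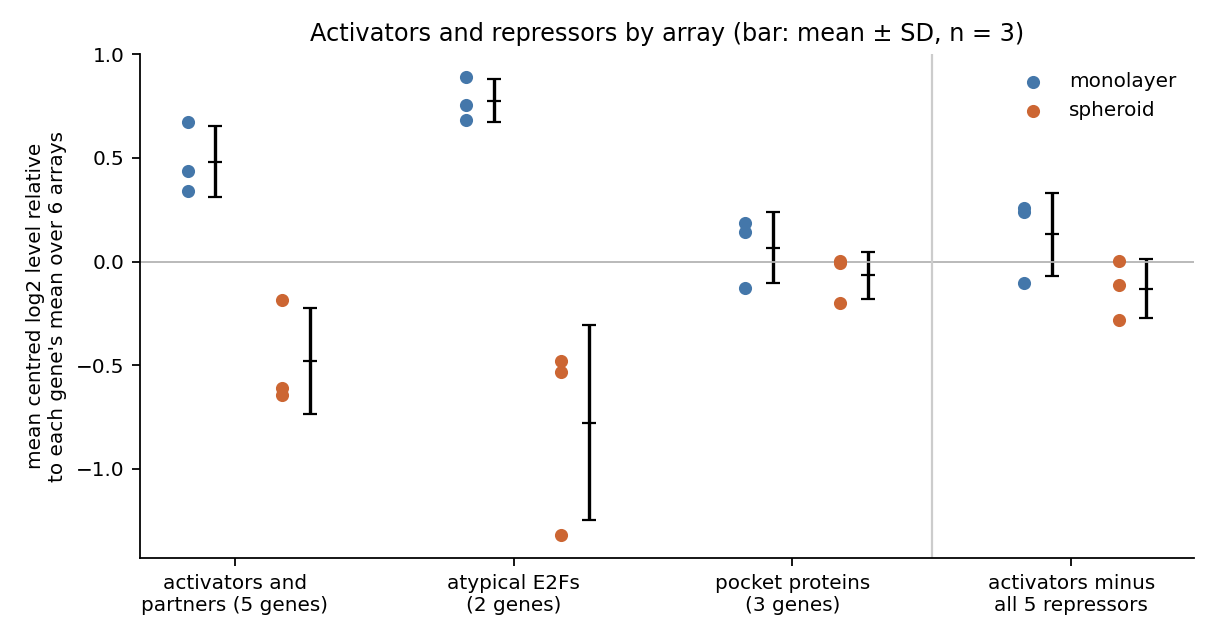
Mean centred log2 level of each class of genes in each array, relative to the mean of each gene over the 6 arrays, with the mean and SD of the 3 arrays beside the points. Monolayers and spheroids separate for the activators and for the atypical E2Fs, and overlap for the pocket proteins and for activators minus repressors (0.13 against -0.13).

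Of a list of 8 further factors, made of other E2F, DP and MYB genes and the forkhead factor FOXM1, MYBL1 and FOXM1 were lower and 6 did not pass. MYBL1 (A-MYB), of the same MYB family as MYBL2, fell from 413 ± 23.5 to 127.5 ± 25.0 (SD, n = 3; log2 fold change -1.86, adjusted p = 5.57e-04 by limma). FOXM1, which follows MYBL2 on MuvB at mitotic genes, fell from 888 ± 112 to 301 ± 56.3 (log2 fold change -1.72, adjusted p = 5.91e-04 by limma). E2F4, E2F5 and E2F6, the repressor-type E2Fs, did not pass, with log2 fold changes of 0.00, 0.03 and -0.06 (SEs 0.16, 0.22 and 0.16). None of 6 genes of the MuvB core and its assembly kinase DYRK1A was called by limma or by the methods' t-test after adjustment (2 lower at an unadjusted p under 0.05 by limma), with changes from -0.58 (LIN52) to 0.01 (LIN37). Of 10 corepressors recruited by pocket proteins, the histone methyltransferase SUV39H1 and the deacetylase HDAC2 were lower (log2 fold changes -1.14 and -0.50) and 8 did not pass. Beside the counts of these lists, 9.22% of all genes were called lower and 3.88% higher.

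Kinase subunits that inactivate pocket proteins were mostly lower. The shares of all genes, to set beside the counts below, were 9.22% lower and 3.88% higher. Of 10 cyclins, kinases and CDC25A, 8 were lower and 2 did not pass, the latter being CDK4 (-0.30) and CDK6 (-0.24). CDC25A, the phosphatase that activates CDK2, fell from 207 ± 18.1 to 43.2 ± 5.84 (SD, n = 3; log2 fold change -2.41, adjusted p = 2.95e-04 by limma). Cyclin E2 (CCNE2), cyclin D3 (CCND3) and cyclin A2 (CCNA2) fell by 1.67, 1.18 and 1.63 on the log2 scale. Of 6 measured CDK inhibitors, 2 were higher and 4 did not pass, with none lower. CDKN2B (p15), which blocks CDK4 and CDK6, rose from 128 ± 27.9 to 773 ± 100.3 (log2 fold change 2.47, adjusted p = 6.16e-04 by limma), and CDKN1C (p57) from 84.4 ± 16.9 to 252 ± 58.3 (log2 fold change 1.43, adjusted p = 0.00504). Of 5 genes of the SCF-SKP2 ligase, which marks p27 and p130 for degradation, CKS1B and SKP2 were lower (log2 fold changes -1.20 and -1.22) and 3 did not pass. SKP2 passed narrowly, with a wide spread (SE 0.32, adjusted p = 0.0454 by limma), where CKS1B had an SE of 0.12 (adjusted p = 9.99e-04). In limma without the trend 2 of the cyclin and kinase list were lower, 1 CDK inhibitor was higher and 0 ligase genes and 0 corepressors were lower. By the methods' t-test after adjustment these counts were 4, 1, 1 and 2.

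Known target genes of both arms fell together. Of 31 measured G1/S targets of E2F, 30 were lower, none was higher and SLBP did not pass (-0.41). The list had a median log2 fold change of -1.31, where that of all genes was -0.06 and 9.22% of all genes were called lower. CDC25A, POLE2, a subunit of DNA polymerase epsilon, CDC6, which loads the replicative helicase, and CCNE2 were among those with the smallest adjusted p (MCM7 and GINS2 tied with CCNE2), with log2 fold changes of -2.41, -2.12, -1.73 and -1.67. Of 29 G2/M targets of MYBL2, MuvB and FOXM1, 29 were lower, with a median of -1.47. In limma without the trend 8 G1/S and 6 G2/M targets passed, and by the methods' t-test after adjustment 13 and 9. AURKA and AURKB, the mitotic Aurora kinases, CDC20, an activator of the anaphase-promoting complex, and FOXM1 itself had the smallest adjusted p, with log2 fold changes of -1.74, -1.58, -2.06 and -1.72. None of 5 measured apoptosis genes described as E2F1 targets was called by limma or by the methods' t-test after adjustment (1 lower at an unadjusted p under 0.05 by limma), with changes from -0.78 (PMAIP1) to 0.14 (BCL2L11). CCNE1, CCNE2, CCNA2 and CDC25A stand in a kinase list and in the G1/S list, and FOXM1 in a pair of lists. Other lists of cell cycle genes in these samples had been seen to fall before, so these counts are not independent support.

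**Figure D4:**
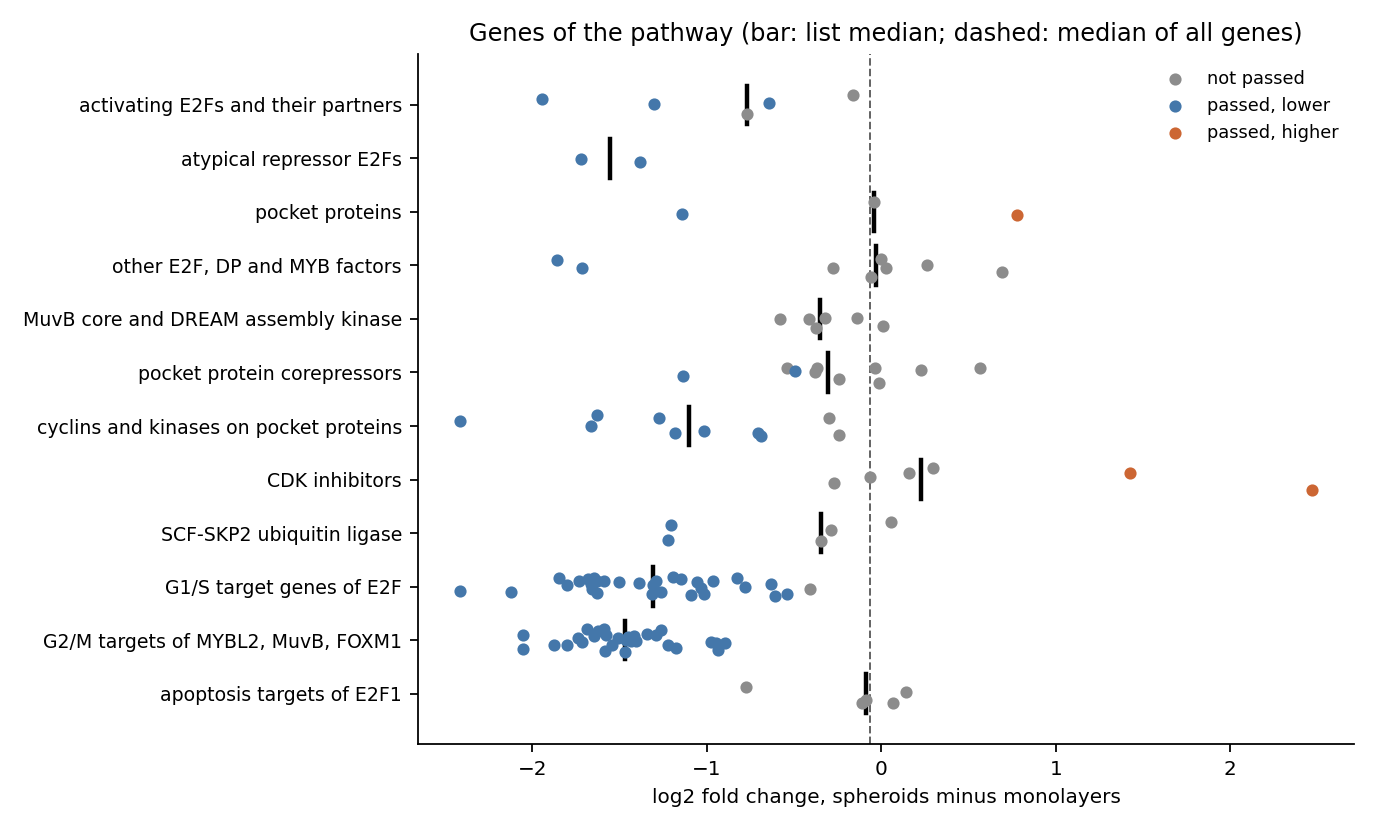
Log2 fold change, spheroids minus monolayers, of each gene in the 3 classes of members and in 9 lists of related genes, each point 1 gene at its brightest probe set, with a black bar at the median of the list and a dashed line at the median of all genes (-0.06). The G1/S and G2/M targets lie left of 0 throughout, with medians of -1.31 and -1.47, and the points that passed higher are RBL2, CDKN2B and CDKN1C.

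The target lists also differed in the motifs of their promoters. Lists of known targets may hold such motifs by how they were chosen, so this is not independent support. Promoter entries covered 28 of the 34 listed G1/S genes and 23 of the 29 listed G2/M genes, measured or not. The E2F motif was present in 28.9% of 45 promoters of G1/S targets (12 of 28 genes) and in 6.06% of 33 promoters of G2/M targets (2 of 23 genes), beside 5.92% of all promoters. The CHR core was present in 4.44% of the former (2 of 28 genes) and in 45.5% of the latter (13 of 23 genes), beside 13.3% of all. Of the 6 members that were lower, E2F2, TFDP1 and RBL1 carried the E2F motif shown above and E2F7 and MYBL2 did not, E2F8 having no entry. E2F3, which did not pass, carried both motifs. A match describes the letters in these windows and not a bound site, and no match says only that the letters are absent from the window.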

How the data were processed

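RNA of 3 monolayer and 3 spheroid cultures of NCI-H226 was measured on 1 Affymetrix array each. The deposited values are intensities of probe sets on a linear scale, which the authors computed with MAS5 and scaled to an equal trimmed mean. The normalization to median expression in the methods does not show in the values. Detection calls were not used here, so signal over background is unknown. Precision is limited by the number of arrays. Signals were transformed to log2 and centred on the array median. No floor or filter was set, and 62 control probe sets were left out of the tests. Groups were compared by limma 3.58.1 (R 4.3.3) with a mean-variance trend and Benjamini-Hochberg adjustment over 54613 probe sets, and the pipeline was checked on artificial values with known answers. Probe sets were named where the platform annotation gives 1 gene, which held for 41097, and all 10 members matched RefSeq by gene ID.

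The members and lists were chosen with earlier results of these data known. Named genes are the members, up to 4 called genes of each list and direction by smallest adjusted p, and bright markers. CDK4, CDK6, SLBP, E2F4, E2F5, E2F6, LIN52, LIN37, PMAIP1, BCL2L11, CALB2, KRT5, KDR, COL3A1, MCM7, GINS2, PDPN, THBD, PTPRC and the pairs compared fall outside that rule, having been picked with their values in view. Alternatives were other scalings, a floor, a filter, the methods' t-test, limma without the trend, a replicate block, other probe set rules and leaving out each array. Proteins were not analysed here.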

Additional observations from a re-analysis of the deposited data

How the results depend on the processing

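All 10 called probe sets of the members kept their sign under each alternative run. Over all probe sets limma called 5149, against 457 without the trend, 1241 by the methods' t-test after adjustment and 10731 without, and from 2438 to 6577 without 1 array. In the same order of the first 2 settings, and with a floor at the 20th percentile, member probe sets called lower were 0, 2 and 4 (3 to 9 without 1 array) and those called higher 0, 0 and 0 (0 to 1). Member genes called lower were 0, 1 and 3 (1 to 6) and those called higher 0, 0 and 0 (0 to 1). With the mean of all probe sets of a gene 4 genes were lower (E2F1, E2F8, TFDP1 and MYBL2) and 0 higher (RBL2 0.65, adjusted p = 0.0675 by limma). Without the trend and by the adjusted t-test the G1/S targets called lower were 8 and 13, the G2/M targets 6 and 9, all pathway genes lower 15 and 27 and higher 1 and 1, with 4 higher after quantile normalization. The mean difference of activators and repressors was -0.49 with the mean of all probe sets and -0.49 without probe sets that end in _x_at or _s_at. Signs turned only at uncalled probe sets: E2F3 203693_s_at (0.0245 after quantile normalization), RB1 203132_at (0.11 as deposited, 0.14 after quantile normalization, -0.11 to 0.066 without 1 array), E2F2 207042_at (-0.42 to 0.67 without 1 array) and RBL1 1555003_at (-0.26 to 1.75). The cause of these shifts was not tested. With a replicate block 6133 probe sets passed, with 9 member probe sets lower and 1 higher. Same-numbered arrays hardly deviated together over all probe sets (correlations 0.09, -0.01 and 0.02, where over 0.1 for each would pair them). The numbers were therefore not taken as pairs. Yet the 0.09 of the replicate 1 arrays was the highest between any monolayer and any spheroid array (others -0.08 to 0.05). Such a correlation weighs dim and bright probe sets alike, so it cannot exclude pairing. Under the block the adjusted p by limma was 2.03e-04 for MYBL2 and 0.00147 for E2F8, against 0.0160 and 0.0254 without it. Of the called genes at their brightest probe sets TFDP1 alone moved up, from 0.0120 to 0.0182.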
